A study of Mus musculus with 4 samples.

Results

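The 10 genes described here, Per1, Per2, Per3, Cry1, Cry2, Arntl, Clock, Nr1d1, Dbp and Bhlhe40, belong to the core of the circadian clock. They were chosen as a fixed list of names, with earlier results of these data known. The names were matched to the gene name of each array probe in the authors' deposited table. All 10 names were found, on 12 of the 33697 probes that carry a gene name, or 10 of 26265 named genes. Cry2 and Dbp each had 2 probes and the others 1, and all 12 probes were well above background on all 4 arrays. The arrays carried RNA of islets, the endocrine part of the pancreas, isolated from 8-week-old C57BL/6 mice. The islets were kept for 24 h in RPMI1640 medium at 5.6 mM glucose, with 30 µM GKA in 2 samples and with vehicle (DMSO) in 2. GKA is a glucokinase activator, a small molecule that acts on the enzyme with which beta cells sense glucose. Whether each sample came from its own mice or culture is not stated, so every p-value rests on a spread between samples that may be technical.

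The clock is a loop of transcription and feedback that runs in nearly every cell. The proteins CLOCK and ARNTL (also called BMAL1) bind DNA as a pair at E-box elements and switch on the Per and Cry genes, whose products enter the nucleus and shut their own transcription off. The same pair drives Nr1d1, which encodes the repressor REV-ERB alpha, and Dbp, a transcription factor of output genes, and Bhlhe40, which competes for E-boxes. REV-ERB and ROR receptors in turn set the level of Arntl. Islets hold such a clock, and in mice its loss in beta cells impairs insulin secretion. Transcripts of the Per genes, above all Per1, are also induced within hours by cAMP, calcium and glucocorticoids.

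With GKA, the data showed less Dbp and Nr1d1 and more Per1, while the transcripts of the activators Arntl and Clock did not pass the test. Dbp was 3.16-fold lower, Nr1d1 2.00-fold lower and Per1 1.76-fold higher. Each of these had an adjusted p under 0.05 in limma, a linear model with a spread shared across genes, with Benjamini-Hochberg adjustment over the 17178 genes tested. Of the 10 clock genes, 1 rose, 2 fell and 7 did not pass. Across all genes tested, 17.1% passed in either direction, 9.11% as higher and 8.01% as lower. Vehicle and GKA values stood clear of each other in 8 of the 10 clock genes, Cry2 by only 1 of its 2 probes, against 65.9% of all genes. The median log2 fold change was 0.01 for the 10 genes and -0.01 for all genes. The design has 1 time of collection, so a change of level and a shift of the rhythm cannot be told apart. In whole islets, fewer cells of a type and less RNA per cell cannot be told apart either.

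**Figure D1:**
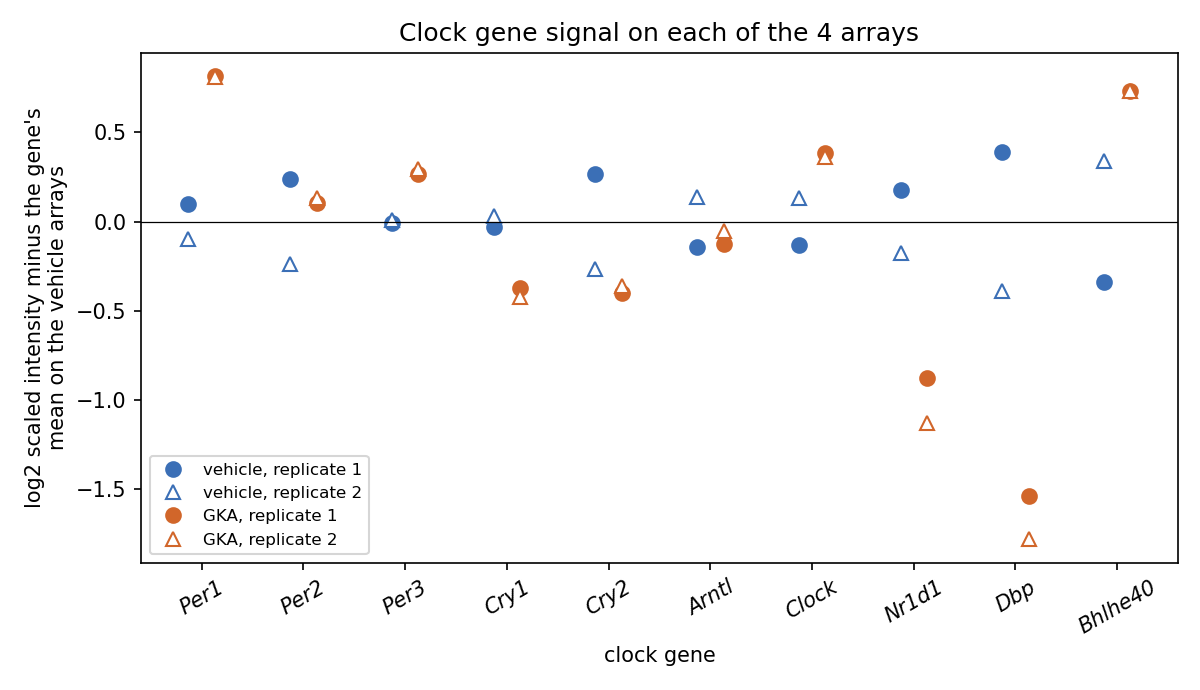
Log2 scaled intensity of each clock gene on the 4 arrays, set against the gene's mean on the vehicle arrays (y axis, log2 units; x axis, gene). Blue marks are vehicle and orange marks GKA, with filled circles for replicate 1 and open triangles for replicate 2. Both GKA arrays lie far below both vehicle arrays for Dbp and Nr1d1 and above them for Per1, and the vehicle marks lie apart for Dbp and Bhlhe40.

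Of the 10 clock genes, the output factor Dbp had the largest fold change in the main setting. Dbp encodes a transcription factor of the PAR bZIP family that drives rhythmic target genes. The signal of Dbp, in multiples of the 75th percentile of each array's probe intensities, was 16.1 and 9.35 with vehicle and 4.23 and 3.57 with GKA. Both GKA values lay below both vehicle values, and the vehicle arrays themselves differed by 0.78 on the log2 scale, a gap reached by 2.95% of all genes. The log2 fold change of Dbp was -1.66 ± 0.27 (SE, n = 2 per group; 95% confidence interval -2.35 to -0.97; limma adjusted p = 0.0207). Of all genes tested, 0.506% fell by as much or more. The probe lies at chromosome 7, 52965322 to 52965381, on build mm9. The other Dbp probe, at 52965461 to 52965520, stood at 11.6 and 7.03 with vehicle and at 3.21 and 3.02 with GKA. Its log2 fold change was -1.54 ± 0.25 (adjusted p = 0.0184 over all probes in limma). The 2 probes thus gave the same direction and a similar size.

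Nr1d1 encodes a nuclear receptor that represses Arntl. Its signal was 0.559 and 0.438 with vehicle and 0.270 and 0.227 with GKA, so both GKA arrays were lower than both vehicle arrays. The log2 fold change was -1.0 ± 0.17 (95% confidence interval -1.43 to -0.57; limma adjusted p = 0.0228). The positions given for this probe, chromosome 11, 98630526 to 98631028 on mm9, span 503 bases where the other clock probes span 60.

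Per1, a repressor of the CLOCK and ARNTL pair, moved the other way. Its signal was 2.58 and 2.24 with vehicle and 4.23 and 4.21 with GKA. The GKA arrays were nearly equal and both lay above the vehicle arrays. The log2 fold change was 0.81 ± 0.13 (95% confidence interval 0.50 to 1.13; limma adjusted p = 0.0182), measured at chromosome 11, 68923364 to 68923423 on mm9. Without scaling Per1 stood at 0.43 and passed (adjusted p = 0.0415), and scaled to the E1A spike-in controls it stood at 0.33 and did not pass (adjusted p = 0.31). In the spike-in fit every clock gene had the same SE, 0.27, so its p-values do not reflect the spread of the single gene.

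The calls of all 3 genes needed both GKA arrays. Without GKA replicate 1 the adjusted p in limma was 0.069 for Dbp, 0.065 for Nr1d1 and 0.0824 for Per1, and without GKA replicate 2 it was 0.092, 0.101 and 0.0853. In these 2 fits the other clock genes did not pass either, and far fewer of all genes passed than in the main fit. A call lost there is thus not particular to the clock genes. Without either vehicle array all 3 passed, and Dbp then stood between -2.05 and -1.27. With all probes in the fit, dim ones included, the adjusted p was 0.0941 for Dbp, 0.101 for Nr1d1 and 0.0921 for Per1. In the fits without 1 array the lone array of a group is assumed to vary like the others.

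The DNA just upstream of these 3 genes is shown because CLOCK and ARNTL act at E-boxes and cAMP signals act at CRE elements. Each line holds the 250 bases before a RefSeq transcription start (build GRCm38.p6), 5′ to 3′ on the gene's strand. Capitals mark the motifs searched on both strands, namely the E-box CACGTG, the variant CACGTT, the D-box TTATGTAA or TTACGTAA, the ROR element TAGGTCA, the CRE TGACGTCA and its half-site TGACG, which the full CRE contains on either strand.
Dbp, chr7:45704997-45705246 (+ strand): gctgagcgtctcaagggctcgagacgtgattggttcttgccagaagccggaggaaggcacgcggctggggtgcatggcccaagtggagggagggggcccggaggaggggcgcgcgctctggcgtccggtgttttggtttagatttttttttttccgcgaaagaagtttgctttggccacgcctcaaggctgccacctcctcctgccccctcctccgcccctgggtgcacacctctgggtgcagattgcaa
Nr1d1, chr11:98775378-98775627 (- strand): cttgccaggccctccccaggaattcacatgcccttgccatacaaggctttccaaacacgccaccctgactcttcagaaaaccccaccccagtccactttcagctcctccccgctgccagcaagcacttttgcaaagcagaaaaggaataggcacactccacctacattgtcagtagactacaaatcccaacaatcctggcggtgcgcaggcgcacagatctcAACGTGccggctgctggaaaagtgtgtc
Per1, first start, chr11:69098699-69098948 (+ strand): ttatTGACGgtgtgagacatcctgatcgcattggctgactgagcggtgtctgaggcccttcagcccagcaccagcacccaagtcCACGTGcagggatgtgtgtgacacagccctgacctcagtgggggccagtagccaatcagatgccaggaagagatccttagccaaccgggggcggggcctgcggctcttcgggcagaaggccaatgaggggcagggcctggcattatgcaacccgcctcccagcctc
Per1, other start, chr11:69099902-69100151 (+ strand): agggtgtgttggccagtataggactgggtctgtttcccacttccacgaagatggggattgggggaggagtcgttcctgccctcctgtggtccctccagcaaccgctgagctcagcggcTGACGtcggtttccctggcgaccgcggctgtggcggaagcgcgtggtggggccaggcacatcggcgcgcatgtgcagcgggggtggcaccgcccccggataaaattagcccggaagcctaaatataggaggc
The E-box of Per1 begins 166 bases before its first start, and CRE half-sites begin 246 and 132 bases before the first and the other start. Nr1d1 holds the CACGTT variant 28 bases before its start, and the Dbp window holds none of the motifs. DNA outside these windows, within the genes or farther upstream, was not searched. Of 32851 RefSeq windows of this length, 6.02% hold an E-box, 3.85% the variant, 0.931% a D-box, 2.23% the ROR element, 1.55% a CRE and 17.8% a half-site. Windows were found for 8 of the 10 clock genes (12 windows), all but Per2 and Bhlhe40, and E-boxes lay in those of Per1 and Cry1. The windows of Cry1 and Cry2, which did not pass, also held the CACGTT variant and a CRE half-site. That of Per3 held D-boxes. A match of letters is a description and not a binding site, and no match covers only these windows.

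The other Per genes did not pass. Per2, a repressor partner of the CRY proteins, had a signal of 0.118 and 0.0845 with vehicle and 0.107 and 0.109 with GKA. The GKA arrays lay between the vehicle arrays. Its log2 fold change was 0.12 ± 0.18, with a 95% confidence interval of -0.34 to 0.58 (limma adjusted p = 0.678). Per3, which is dispensable for the rhythm in mice, stood at 0.170 and 0.172 with vehicle and at 0.206 and 0.209 with GKA. The groups did not overlap, and the difference of 0.28 ± 0.11 did not pass (95% confidence interval 0.0030 to 0.56; limma adjusted p = 0.135). Both had negative values when arrays were left unscaled or scaled to the spike-ins. The log2 fold change of Per1 exceeded that of Per2 by 0.69, a difference within each array that no scaling of whole arrays alters. On that scale the vehicle arrays lay 0.14 to either side of their mean, and the GKA arrays at 0.71 and 0.68.

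The cryptochromes are the strongest repressors of the CLOCK and ARNTL pair. Cry1 had a low signal of 0.0399 and 0.0418 with vehicle and 0.0316 and 0.0305 with GKA. Both GKA arrays were lower, by -0.40 ± 0.11 (95% confidence interval -0.68 to -0.11), without passing (limma adjusted p = 0.0672). With normexp on the spot medians, an offset of 50 and the same scaling the value was 0.13, on the other side of 0, and with normexp and quantile normalization it was -0.13. Cry2 stood at 8.32 and 5.76 with vehicle and at 5.24 and 5.39 with GKA. Vehicle replicate 2 lay close to the GKA arrays and vehicle replicate 1 apart from them. The log2 fold change was -0.38 ± 0.20 (95% confidence interval -0.88 to 0.11; limma adjusted p = 0.224). It was -0.65 without vehicle replicate 2, where Cry2 passed (adjusted p = 0.0434), and -0.12 without vehicle replicate 1. On the other Cry2 probe vehicle replicate 1 again lay apart, with 0.396 and 0.232 against 0.229 and 0.243, but there the groups overlapped.

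Transcripts of the activator pair did not pass. Arntl had a signal of 0.732 and 0.888 with vehicle and 0.737 and 0.778 with GKA, so the GKA values lay between the vehicle values. Its log2 fold change was -0.09 ± 0.14, with a 95% confidence interval of -0.45 to 0.27 (limma adjusted p = 0.682). Clock stood at 0.647 and 0.776 with vehicle and at 0.925 and 0.910 with GKA. Both GKA arrays were higher, and the difference of 0.37 ± 0.14 did not pass (95% confidence interval 0.03 to 0.71; limma adjusted p = 0.118). Its direction rested on the scaling, since it stood at -0.013 without scaling and at -0.11 with spike-in scaling. Under a constant scaling of each array, the log2 fold change of Arntl exceeded that of its repressor Nr1d1 by 0.91 and that of Dbp by 1.57. Per1 exceeded Dbp by 2.47.

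Bhlhe40 encodes DEC1, a repressor that also responds to hypoxia and growth signals. Its signal was 0.824 and 1.32 with vehicle and 1.73 on each GKA array. The GKA arrays were alike and higher than both vehicle arrays, which lay 0.68 apart on the log2 scale. The log2 fold change was 0.73 ± 0.23 (95% confidence interval 0.14 to 1.32) and did not pass (limma adjusted p = 0.089). It was 1.07 and passed without vehicle replicate 2 (adjusted p = 0.0113), and it was 0.39 without vehicle replicate 1 (adjusted p = 0.172). It also passed with limma-trend (adjusted p = 0.0348) and with normexp and the 75th percentile (0.0294). Without scaling it stood at 0.35 and with spike-in scaling at 0.25 (adjusted p = 0.263 and 0.444).

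**Figure D2:**
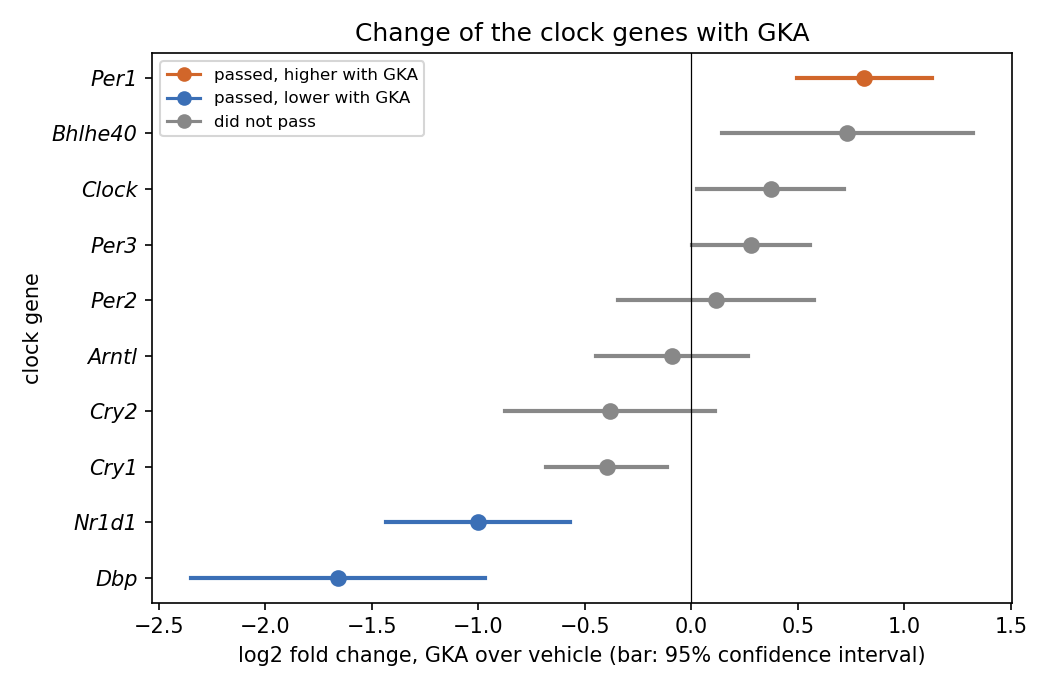
Log2 fold change of GKA over vehicle for the 10 clock genes (x axis, log2 units), ordered from highest to lowest, with 95% confidence intervals from limma as bars. Orange and blue mark genes that passed as higher or lower and grey those that did not; Per1 lies at 0.81, Nr1d1 at -1.0 and Dbp at -1.66, while the interval of Arntl, -0.45 to 0.27, spans 0.

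Much of the spread in clock genes lay between the vehicle arrays. The gap between the vehicle replicates exceeded the median gap of all genes, 0.15 on the log2 scale, in 8 of the 10 clock genes, and that between the GKA replicates exceeded its all-gene median of 0.14 in 2, Nr1d1 and Dbp. Vehicle replicate 1 was the higher of the pair for Dbp, Cry2 (0.53), Per2 (0.48), Nr1d1 (0.35) and Per1 (0.20). It was the lower for Bhlhe40, Arntl (-0.28), Clock (-0.26), Cry1 (-0.06) and Per3 (-0.02). In 6 of the 8 genes without overlap, vehicle replicate 2 was nearer to the GKA mean than replicate 1 was, the exceptions being Per1 and Cry1. The matching share of all genes was not worked out, so this count describes only these genes. What set the vehicle arrays apart was not tested.

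Some close relatives of Nr1d1 and Dbp also fell. In the list of nuclear receptors that act on Arntl, 2 of the 3 described fell. Nr1d2, which encodes REV-ERB beta, had a signal of 0.594 and 0.506 with vehicle and 0.364 and 0.384 with GKA, and its log2 fold change was -0.55 ± 0.13 (limma adjusted p = 0.0469). Rora, an activator of Arntl, stood at 1.55 and 1.58 against 1.02 and 0.985, a change of -0.64 ± 0.11 (adjusted p = 0.0236). For Nr1d2 and Rora both GKA arrays lay below both vehicle arrays. The third receptor, Rorb, had signals of 0.0172 and 0.0173 with vehicle, well above background on 1 of these 2 arrays, and 0.0563 and 0.0402 with GKA. It entered the fit only through the GKA arrays, where it is high, so its difference of 1.46 ± 0.18 and its adjusted p of 0.0124 are given as a description. With normexp and quantile normalization the value was 0.28 (adjusted p = 0.0625).

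Without GKA replicate 1 or GKA replicate 2, Nr1d2 (adjusted p = 0.166 and 0.145) and Rora (0.0935 and 0.113) did not pass in limma. Without vehicle replicate 1, Nr1d2 (adjusted p = 0.144) and Rora (0.0568) did not pass either. With the replicate number as a block, Nr1d2 had an adjusted p of 0.0739.

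Among the bZIP factors related to Dbp, Hlf fell and Tef did not pass. Hlf, a PAR bZIP factor like Dbp, had a signal of 0.354 and 0.230 with vehicle and 0.0962 and 0.0793 with GKA. Its log2 fold change was -1.71 ± 0.24 (limma adjusted p = 0.0143), and it was -0.94 with normexp background correction and the same scaling. Without GKA replicate 1 its adjusted p was 0.0519 and without GKA replicate 2 it was 0.069. Tef, the other PAR bZIP factor, stood at 13 and 7.84 with vehicle and at 8.27 and 8.34 with GKA, so the GKA arrays lay between the vehicle arrays. Its log2 fold change was -0.28 ± 0.25 (adjusted p = 0.458), and -0.65 without vehicle replicate 2, where it passed (adjusted p = 0.0421). Nfil3, which represses the sites that these factors activate, stood at -0.24 ± 0.15 (adjusted p = 0.31).

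The window before the start of Hlf is shown beside that of Dbp because both genes fell. It holds a full CRE that begins 9 bases before the start, in capitals, and none of the E-box, D-box or ROR element motifs. The windows of Nr1d2 and Rora, which also fell, hold none of the motifs. Those of Tef, which did not pass, hold E-boxes.
Hlf, chr11:90390918-90391167 (- strand): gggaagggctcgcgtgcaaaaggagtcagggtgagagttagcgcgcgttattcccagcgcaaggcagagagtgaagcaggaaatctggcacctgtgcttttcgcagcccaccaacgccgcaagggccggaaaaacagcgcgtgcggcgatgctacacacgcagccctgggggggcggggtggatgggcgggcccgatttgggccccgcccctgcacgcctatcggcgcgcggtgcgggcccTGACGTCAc

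Paralogues of the other clock genes did not pass. Arntl2 stood at -0.12 ± 0.13 (limma adjusted p = 0.544) and Npas2, which can replace CLOCK, at 0.09 ± 0.13 (adjusted p = 0.646). Npas2 was near background, with signals from 0.0206 to 0.0247, and was well above it on 3 of 4 arrays. Bhlhe41, which encodes DEC2, stood at -0.32 ± 0.17 (adjusted p = 0.238).

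Of 25 genes on the lists of proteins that bind or modify the clock proteins, 1 passed, against 17.1% of all genes. These lists were chosen with earlier results of these data known, so the count is a description. Of the 10 repressors and partners, Bhlhe41 among them, 0 passed in limma, with log2 fold changes from -0.53 to 0.28, 2 at an unadjusted p under 0.05 and 5 without overlap between groups. Of 10 kinases and phosphatases that mark PER and CRY proteins, 0 passed in limma, with values from -0.32 to 0.20, 1 at an unadjusted p under 0.05 and 3 without overlap. Across all genes tested, 65.9% had no overlap between vehicle and GKA. Of 5 ubiquitin ligases and deubiquitinases, Fbxl21, a ligase for cryptochromes, fell by 0.57 ± 0.12 (limma adjusted p = 0.0373). Its call was lost without vehicle replicate 1 (adjusted p = 0.113), GKA replicate 1 (0.122) or GKA replicate 2 (0.151), with the replicate block (0.0548), with the mean of its probes (0.0617) and with normexp and the 75th percentile (0.0749). Its other probe stood at -0.65 (adjusted p = 0.108 over all probes).

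Among 10 clock-controlled output genes, 1 rose and 2 fell. Noct, a rhythmic gene that encodes the phosphatase nocturnin, had a signal of 0.905 and 1.19 with vehicle and 1.88 and 1.94 with GKA. It rose by 0.88 ± 0.16 (limma adjusted p = 0.0267), with both GKA arrays above both vehicle arrays. With spike-in scaling it stood at 0.40 (adjusted p = 0.217), and leaving out either GKA array gave an adjusted p of 0.0979 or 0.113. Dtx4 fell by 0.77 ± 0.12 (adjusted p = 0.0185) and did not pass without either GKA array (0.0677 and 0.0932). Fkbp5, a co-chaperone induced by glucocorticoids, fell by 0.51 ± 0.12 (adjusted p = 0.0447) and lost the call without any 1 of the 4 arrays (adjusted p from 0.0587 to 0.167) and with the replicate block (0.0728).

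Of 8 genes of the pathways that feed into Per transcription, 2 rose and 1 fell. Crem, a cAMP-responsive transcription factor, had a signal of 0.902 and 0.972 with vehicle and 4.04 and 3.19 with GKA, a rise of 1.94 ± 0.16 (limma adjusted p = 0.00508). Sik1, a kinase induced by cAMP that holds CREB coactivators out of the nucleus, had 0.166 and 0.280 against 0.670 on each GKA array, a rise of 1.64 ± 0.26 (adjusted p = 0.0186). For both, the GKA arrays lay above the vehicle arrays. For Sik1, leaving out either GKA array gave an adjusted p of 0.0758 or 0.0807, while Crem passed without each array in turn. Crtc3, one of those coactivators, fell by 0.50 ± 0.12 (adjusted p = 0.0477) and lost the call without any 1 of the 4 arrays (adjusted p from 0.0812 to 0.198), with the replicate block (0.0653) and with the mean of its probes (0.0600).

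In all, 4 of 51 genes described from these 8 lists passed as higher, Rorb among them, 7 fell and 40 did not pass, or 21.6% called against 17.1% of all genes. Their median log2 fold change was -0.05. Rorb entered the fit only through the GKA arrays, so the 21.6% includes a call that is given as a description. The lists were chosen with earlier results of these data known, so the share itself is also only a description.

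**Figure D3:**
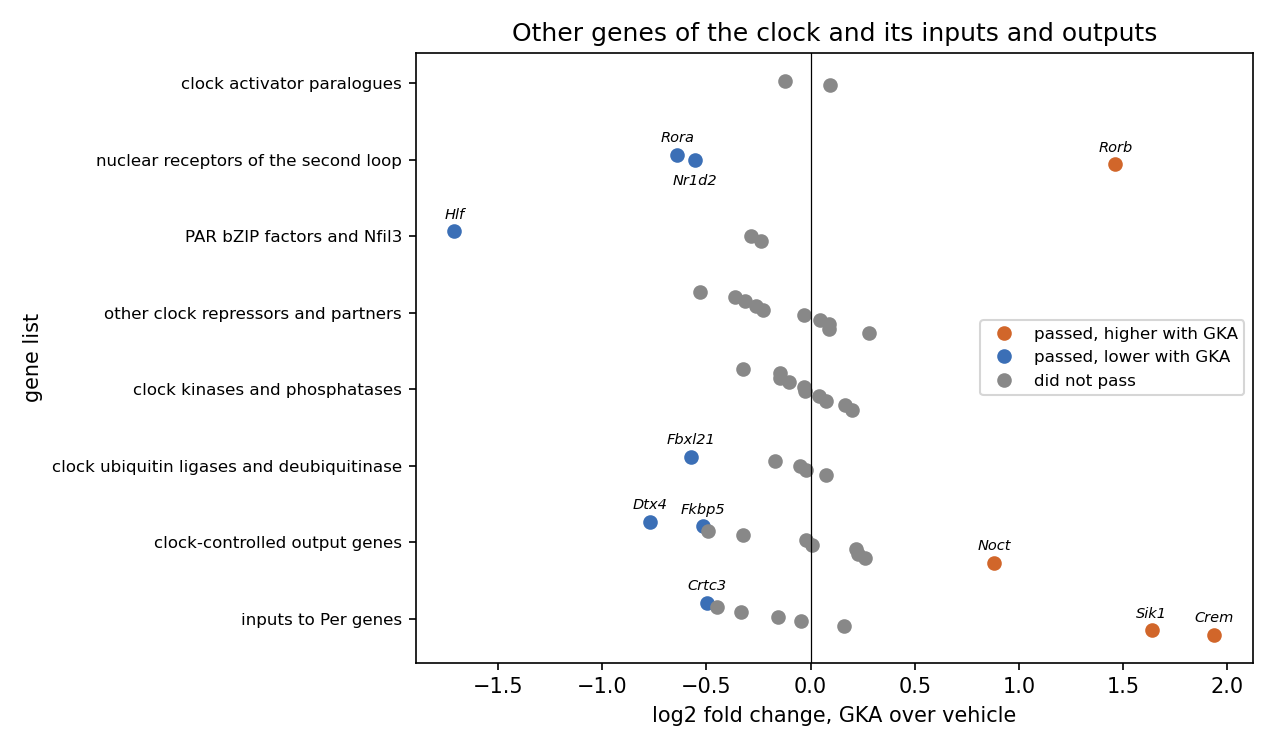
Log2 fold change of GKA over vehicle (x axis, log2 units) for 51 other genes of the clock and of its inputs and outputs, 1 point per gene, by list (y axis). Orange points passed as higher, blue points as lower, and grey points did not pass; Hlf lies farthest to the left, at -1.71, and Crem farthest to the right at 1.94.

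The choice of scaling moved all genes together. Between 23521 and 25055 probes per array were well above background, and the 75th percentile of the probe intensity was 751 and 755 for vehicle and 557 and 598 for GKA. With unscaled arrays the median over all genes was -0.40 and 750 genes were higher against 7654 lower, and with E1A spike-in scaling it lay at -0.49 with 473 higher and 5989 lower. The mean log2 E1A signal was 8.995 and 8.674 for vehicle and 8.838 and 9.025 for GKA. Spike-in scaling thus set the vehicle arrays apart for all genes, although their 75th percentiles were nearly equal. With the main scaling 1565 were higher and 1376 lower, and with median scaling 1381 and 1848. The ratios of GKA over control in the authors' deposited table, which are unscaled, were 0.235 and 0.256 for the Dbp probes, 0.380 for Nr1d1 and 1.34 for Per1. Without scaling 6 clock genes passed, where 48.9% of all genes did. Arntl, Cry1 and Cry2 passed as lower, besides Dbp, Nr1d1 and Per1. All arrays shared 1 slide, with vehicle at positions 1 and 2 and GKA at 3 and 4, and an effect of the position cannot be told apart from that of GKA.

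**Figure D4:**
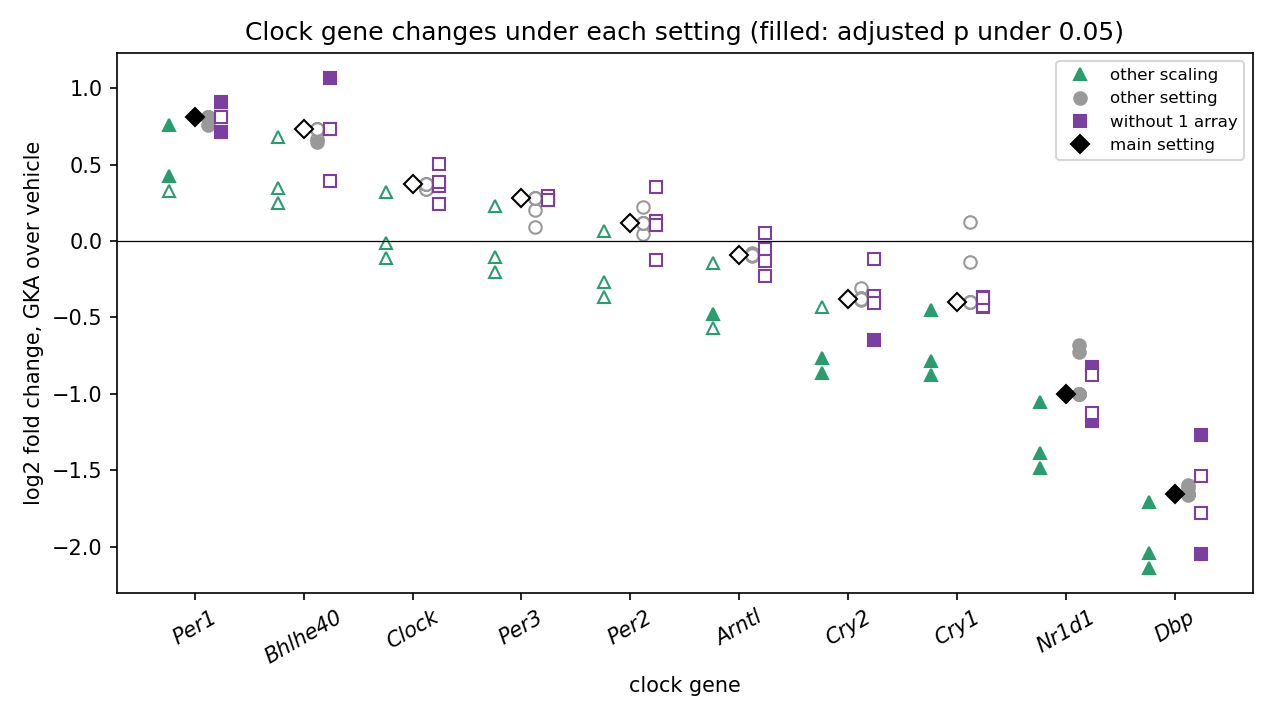
Log2 fold change of each clock gene (y axis, log2 units; x axis, gene) in the main setting and under the alternatives, by kind of alternative, without the fit of single probes. Filled marks have an adjusted p under 0.05 in limma; Dbp and Nr1d1 stay below 0 and Per1 and Bhlhe40 above 0 in each setting drawn, while Clock, Per3, Per2, Arntl and Cry1 cross it.

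The islet markers fixed for these samples were measured, with all 9 beta-cell markers well above background on all 4 arrays. Of these 9, 3 rose and 0 fell, and their summed signal was 1129 to 1131 with vehicle and 1392 to 1427 with GKA. Among all genes tested, 9.11% passed as higher and 8.01% as lower, and in lists this short a single call moves the share widely. Of the markers of other cells, duct genes had 1 lower of 5 tested and a summed signal of 22.6 to 26.9 with vehicle and 13.8 to 15.2 with GKA. Leukocyte genes had 4 lower and 1 higher of 8, with 5.19 to 6.09 and 4.98 to 5.98, and fibroblast and stellate genes 1 lower of 5, with 5.04 to 6.30 and 3.64 to 3.88. Acinar genes had 1 higher and 1 lower of 5, with 1.97 to 2.07 and 2.72 to 4.0, and neural and Schwann genes 2 higher and 1 lower of 6, with 2.55 to 2.63 and 4.04 to 4.17. Lyz2, 1 of the lower leukocyte genes, was well above background on both vehicle arrays and 1 GKA array. The lower acinar gene, Try5, was so on both vehicle arrays and 0 GKA arrays. Both entered the fit only through the vehicle arrays, where they are high, so their calls are given as a description. For Try5 only a bound holds, a fall of at least 6.76-fold. Alpha-cell genes had 0 of 5 called, with 397 to 443 and 497 to 548, delta and PP-cell genes 1 higher of 3, with 561 to 595 and 707 to 742, and endothelial genes 1 higher and 1 lower of 6, with 11.5 to 12.5 and 12 to 13.5. Of the defining acinar markers, Cpa1, Pnlip and Ptf1a did not pass the filter on dim probes, nor did Cftr of duct cells or Cd79a of B cells. The part of these cells in the clock gene values was not tested.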

How the data were processed

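RNA of 4 islet samples was labelled with Cy3 and hybridised to 1-colour Agilent mouse arrays, 1 array each. The authors deposited the intensity of each spot, background-subtracted and detrended by Agilent Feature Extraction version 10.7.3.1 per the file headers (9.1 per the submitters' processing notes). Their deposited table gives 1 intensity per group and the ratio of GKA over control. It supplied gene names and probe positions on mm9.

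From these, log2 intensities were set against each array's 75th percentile, without control spots and outlier-marked spots, and replicate spots were averaged per probe. A probe entered the fit if both arrays of 1 group or more had it well above background, and the kept probe of highest mean signal stood for its gene. No spot was saturated, a count of 0 per array, and 0 pairs of arrays held identical values. Groups were compared by a two-sided moderated test (limma version 3.58.1, lmFit and eBayes, under R 4.3.3), with a threshold of 0.05 on the adjusted p, 2 residual and 3.33 prior degrees of freedom. The fit was tested on simulated data. With 4 arrays an exact permutation test reaches no p under 0.333 and was not used; their small number limits the precision.

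The text names all 10 clock genes, the paralogues on the fixed lists and every listed gene that passed, except 1 listed gene that is not reported here and is left out of the list counts. Gene identifiers of the listed genes were checked against RefSeq, and the array name of Cipc was corrected from the one first listed. The members and the 8 other lists were chosen with earlier results of these data known. Alternatives covered scaling, background correction, the filter, the choice of probe, outlier spots, limma-trend, the replicate block and leaving out each array. Promoter sequences are from a RefSeq table of GRCm38.p6, whose coordinates were not combined with those of mm9.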

Additional observations from a re-analysis of the deposited data

How the results depend on the processing

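For the 10 clock genes, 133 of 162 values under an alternative kept their direction and side of the threshold, 10 lost the call, 10 gained it and 9 changed sign. For the 3 genes that passed, 39 of 49 kept both, 10 lost the call and 0 changed sign. Without scaling, 8404 genes (48.9% of all) and 6 clock genes passed in limma. Per2 then stood at -0.27, Per3 at -0.10, Clock at -0.013 and Npas2 at -0.29. With spike-in scaling, 6462 genes passed, and the same 4 stood at -0.36, -0.20, -0.11 and -0.39. With normexp and the 75th percentile, 5045 genes passed, Cry1 stood at 0.13 and Arntl2 at 0.038. The array files have no column of mean spot signal, so the planned normexp fits on it were not run, and the spot medians were used instead, chosen after seeing the data. Without the filter on dim probes, 223 genes and 0 clock genes passed, with 5984 genes and 5 clock genes at an unadjusted p under 0.05. Leaving out 1 array at a time gave 533 to 2835 genes and 0 to 5 clock genes. It gave -0.12 to 0.36 for Per2, -0.23 to 0.050 for Arntl, -0.0033 to 0.19 for Npas2 and -0.65 to 0.084 for Tef. With the replicate number as a block, 1916 genes and 3 clock genes passed. Same-numbered samples share only a number in the labels (correlation of their deviations 0.08 across genes), so this fit is no paired analysis. Apart from what fewer arrays and more probes tested bring, the cause was not tested.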
